A study of Mus musculus with 4 samples.

Results

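The matrix genes described here are 35 genes for basement membrane and interstitial matrix proteins. They are named collagen, laminin, nidogen and fibulin genes with those of perlecan (Hspg2) and agrin (Agrn), chosen by name, out of 21523 protein-coding genes placed on chromosomes 1 to 19 and X. The choice was made with earlier results of these data known. Of the 35, 22 encode proteins of the basement membrane or its anchoring complexes, 10 encode interstitial collagens and 3 encode fibulins, which occur in both kinds of matrix. The data come from CUT&RUN, in which an antibody directs a nuclease to chromatin and the released fragments are sequenced. The cells came from dissociated E13.5 molar tooth germs of the mouse strain CD1, all wild-type and untreated as far as the labels say. One antibody recognised Smad1/5 in its phosphorylated form (pSmad1/5), the other phosphorylated Smad3 (pSmad3), with 2 libraries each. The germs hold epithelium and mesenchyme together, so a peak cannot be assigned to either tissue, and the labels do not say how many embryos were pooled in a library. For each antibody the authors deposited 1 list of peaks common to its 2 libraries, with 10741 peaks for pSmad1/5 and 7905 for pSmad3. Values per library were not used here, so no result below has a replicate error or a test, and the read depth behind a peak is unknown.

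Basement membranes are thin sheets of matrix under epithelia and around vessels, nerves and muscle. Laminin trimers of an α, a β and a γ chain assemble at the cell surface, type IV collagen forms a covalently linked network beneath, and nidogens, perlecan and agrin join the layers. Interstitial matrix, laid down mostly by mesenchymal cells, is built from fibrillar collagens with type VI collagen and fibril-associated collagens. In the tooth germ the basement membrane separates the dental epithelium from the condensing mesenchyme. BMP receptors phosphorylate Smad1/5 and TGF-β or activin receptors phosphorylate Smad3, and matrix genes are among the long-known targets of TGF-β. The comparison asks which of these genes carry deposited peaks of each Smad branch, and whether basement membrane and interstitial genes differ in this. A peak shows occupancy by the antibody's target as called by the authors, not expression of the gene.

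Most matrix genes had a peak in their locus, meaning the gene body and 10 kb on each side. A pSmad1/5 peak was present at 23 of the 35 genes (65.7%, exact 95% Clopper-Pearson interval 47.8 to 80.9), against 27.3% of all protein-coding genes. A pSmad3 peak was present at 18 (51.4%, 34.0 to 68.6), against 24.4% of all protein-coding genes. Long loci hold peaks more often, so each gene was also set beside the protein-coding genes of its own length class, 1 of 20 classes of equal size. At the shares of those classes, 12.0 of 35 genes would carry pSmad1/5 and 10.7 pSmad3. Both antibodies had a peak at 15 genes (42.9%), where 14.1% of all protein-coding genes and 6.89 of 35 genes of the same lengths had both. The pSmad1/5 list alone had a peak at 8 genes (13.2% of all genes, 5.07 expected from length) and the pSmad3 list alone at 3 (10.3%, 3.78 expected). Neither list had a peak at 9 (25.7%, against 62.4% of all genes and 19.3 expected). A gene counted for 1 list alone can still have signal of the other antibody below the calling threshold. These intervals cover the counting of genes only, and family members are not replicates of a condition.

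**Figure D1:**
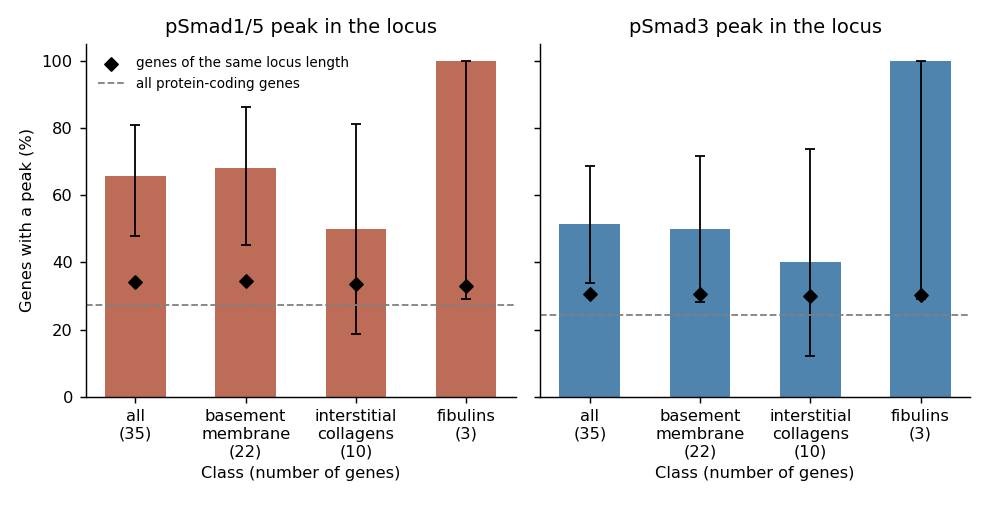
Bars give the percentage of genes with a deposited peak in the locus for each antibody and class, with exact 95% Clopper-Pearson intervals that cover counting error only. Diamonds give the percentage among protein-coding genes of the same locus lengths and the dashed line that among all protein-coding genes (27.3% for pSmad1/5, 24.4% for pSmad3). The bars for all 35 genes, 65.7% and 51.4%, stand above both.

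With all listed peaks and the fibulins kept apart, basement membrane genes had peaks at a higher share than interstitial collagen genes for both antibodies. The intervals overlapped widely. A pSmad1/5 peak lay at 15 of 22 basement membrane genes (68.2%, 45.1 to 86.1; 7.62 expected from length) and at 5 of 10 interstitial genes (50%, 18.7 to 81.3; 3.35 expected). A pSmad3 peak lay at 11 of 22 (50%, 28.2 to 71.8; 6.76 expected) and at 4 of 10 (40.0%, 12.2 to 73.8; 3 expected). The excess over the expected number was therefore 1 to 2 genes for the interstitial collagens. The 3 fibulin genes all carried both. For pSmad3 the order was the reverse with peaks at or above the list's median total signal alone (7 of 22 against 4 of 10). It was also the reverse with the fibulins counted as interstitial (11 of 22 against 7 of 13). The classes cannot be told apart in share from lists of this size.

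**Figure D2:**
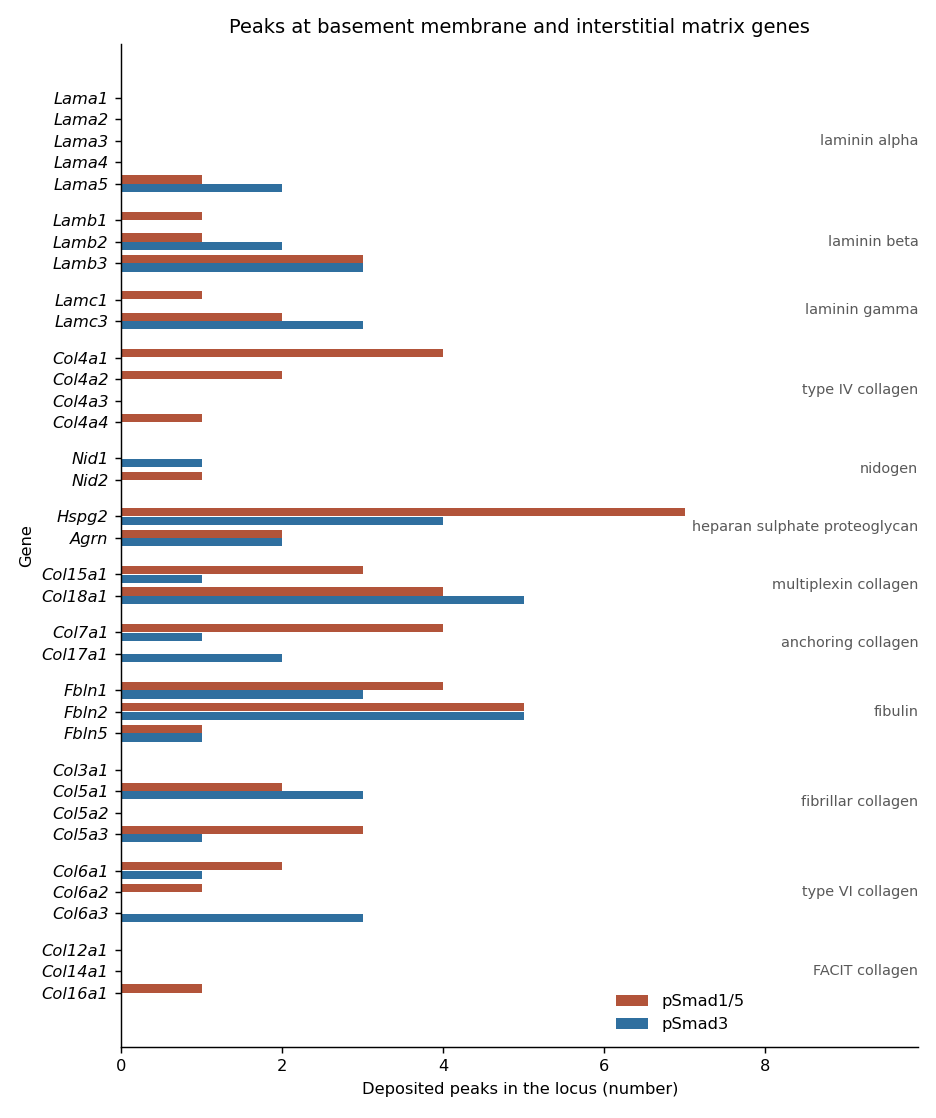
Horizontal bars give the number of deposited peaks of each antibody in the locus of each of the 35 genes, grouped by role. Hspg2 has the longest pSmad1/5 bar (7 peaks), Fbln2 and Col18a1 the longest pSmad3 bars (5 each), and Lama1, Lama2, Lama3, Lama4, Col4a3, Col3a1, Col5a2, Col12a1 and Col14a1 have none.

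Peaks covered a transcription start at 6 of the 25 matrix genes with a start in the RefSeq promoter table (GRCm38.p6, the assembly of mm10). Starts of Col7a1 and Agrn lay inside a pSmad1/5 peak, and those of Hspg2, Col5a3, Col6a3 and Nid1 inside a pSmad3 peak. Over all 17274 protein-coding genes in that table, 3.40% had a start inside a pSmad1/5 peak and 4.16% inside a pSmad3 peak. Of the 25 matrix genes these were 2 and 4. The share of all genes with a start under either list was not counted, so 6 of 25 has no matching background. The other 10 genes, not in the table, are Lama1, Lama3, Lama4, Lamc1, Lamc3, Col4a3, Nid2, Col5a2, Col12a1 and Col14a1. The 250 bases upstream of each covered start are printed below because they are the stretches of promoter that lay under a peak. They are chr9:108953336-108953585 (plus strand) for Col7a1, chr4:156186260-156186509 (minus) for the internal start of Agrn, chr4:137468553-137468802 (plus) for Hspg2, chr9:20815068-20815317 (minus) for Col5a3, chr1:90843972-90844221 (minus) for Col6a3 and chr13:13437352-13437601 (plus) for Nid1, all on mm10. Capitals mark every match, on either strand, to 3 short motifs known from studies of Smad binding. GTCTG is the Smad box bound by Smad3. GGCGCC is a palindrome of the GC-rich elements bound by Smad1/5, and a further GC-rich form is GGAGCC.
Col7a1: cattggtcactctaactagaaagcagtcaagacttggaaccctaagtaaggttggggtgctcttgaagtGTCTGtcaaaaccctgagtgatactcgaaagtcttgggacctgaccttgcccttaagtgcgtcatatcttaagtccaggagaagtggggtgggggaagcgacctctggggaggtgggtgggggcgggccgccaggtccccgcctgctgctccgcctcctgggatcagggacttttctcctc
Agrn: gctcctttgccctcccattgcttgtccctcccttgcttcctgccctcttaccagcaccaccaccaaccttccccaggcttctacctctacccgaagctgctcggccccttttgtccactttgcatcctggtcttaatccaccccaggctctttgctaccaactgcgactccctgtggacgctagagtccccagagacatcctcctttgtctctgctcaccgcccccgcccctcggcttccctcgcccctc
Hspg2: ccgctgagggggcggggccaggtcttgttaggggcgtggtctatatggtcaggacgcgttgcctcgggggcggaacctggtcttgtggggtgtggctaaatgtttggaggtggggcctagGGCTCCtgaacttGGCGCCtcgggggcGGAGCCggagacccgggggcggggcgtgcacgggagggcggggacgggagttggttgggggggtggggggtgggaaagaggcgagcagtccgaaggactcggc
Col5a3: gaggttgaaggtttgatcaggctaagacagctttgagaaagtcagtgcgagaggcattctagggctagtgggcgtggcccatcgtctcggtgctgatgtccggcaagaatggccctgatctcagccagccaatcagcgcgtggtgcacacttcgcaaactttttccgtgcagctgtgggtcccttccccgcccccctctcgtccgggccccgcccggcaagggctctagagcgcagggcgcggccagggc
Col6a3: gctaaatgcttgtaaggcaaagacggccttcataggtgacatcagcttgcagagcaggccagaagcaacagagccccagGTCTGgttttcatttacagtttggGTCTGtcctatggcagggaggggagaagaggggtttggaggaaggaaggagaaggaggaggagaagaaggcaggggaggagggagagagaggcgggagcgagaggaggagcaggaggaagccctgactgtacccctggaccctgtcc
Nid1: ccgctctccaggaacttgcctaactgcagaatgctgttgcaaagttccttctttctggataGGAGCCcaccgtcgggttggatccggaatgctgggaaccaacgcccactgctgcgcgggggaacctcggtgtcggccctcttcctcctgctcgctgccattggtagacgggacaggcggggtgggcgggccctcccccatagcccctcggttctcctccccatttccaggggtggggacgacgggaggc
Hspg2 held 1 match to GGCGCC and 2 to the form GGAGCC, Nid1 1 to GGAGCC, Col6a3 2 GTCTG matches and Col7a1 1, while Agrn and Col5a3 held none of the 3. Among all 21045 protein-coding starts, 40.7% of such windows held GTCTG, 12.4% GGCGCC and 29.6% GGAGCC. Among the 31 matrix gene starts the shares were 51.6% for GTCTG, 32.3% for GGCGCC and 19.4% for the form GGAGCC. The palindrome GGCGCC thus occurred upstream of 10 starts, at 9 genes, of which only Hspg2 and Agrn had any start inside a peak, and at Agrn it was another start than the covered one. The windows of matrix gene starts were richer in G and C than all windows (median 61.2% against 55.6%), and the part of base composition in these shares was not tested. A match of 5 or 6 letters describes the window and is not a binding site.

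The genes of the heparan sulphate proteoglycans perlecan and agrin each carried peaks of both antibodies (0.354 of 2 expected from length). Hspg2 encodes perlecan, which binds growth factors and laminin, and lies on chromosome 4 from 137468751 to 137570630. It had 7 pSmad1/5 peaks from 3 calls, the highest number of pSmad1/5 peaks among the 35 genes, covering 23.5 kb or 19.3% of its locus. A call is a region as the peak caller SEACR reported it, and lines of the list that share 1 call are its pieces. Its 4 pSmad3 peaks, from 4 calls, covered 26 kb (21.3%). Of the 1076 protein-coding genes in its length class, Hspg2 included, 61 (5.67%) had at least as many pSmad1/5 calls and 26 (2.42%) at least as many pSmad3 calls. The pSmad3 peak over the start ran from 137466389 to 137478098, its maximum 617 bp upstream of the RefSeq start, and its total signal was above that of 85.7% of the pSmad3 list. A pSmad1/5 peak from 137473988 to 137478323 shared 4111 bp with it, or 94.8% of the narrower peak. Downstream, the pSmad3 peak from 137486213 to 137495315 contained the whole pSmad1/5 peak from 137488922 to 137492008.

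Agrn, on chromosome 4 from 156165290 to 156197533, encodes agrin, known for clustering acetylcholine receptors at the nerve-muscle synapse. Its pSmad1/5 peaks covered 13.8% of the locus and its pSmad3 peaks 12.8%. The pSmad1/5 peak from 156182986 to 156187822 covered the internal RefSeq start at 156186259, with the maximum of the call 171 bp upstream of that start. The total signal of this call was above 87.7% of the pSmad1/5 list. A second piece of the same call, from 156173136 to 156175484, shared 1147 bp with a pSmad3 peak from 156174338 to 156175616. The stronger pSmad3 peak (156188457 to 156193881, percentile 87.9) lay between the 2 RefSeq starts and covered neither. The maximum of its call lay outside it, at 156184016 to 156184022. That is on the other side of the internal start and inside the pSmad1/5 peak over this start. Here and below, percentile is the percentage of peaks in the same list with a lower total signal.

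Among laminin genes, 1 of 5 α chain genes had a peak and 4 had neither (2.53 with neither expected from length). All 3 β and both γ chain genes had a peak (1.78 of 3 and 1.09 of 2 with neither expected). The difference was not tested and depended on the settings, since a flank of 50 kb gave Lama2 and Lama3 a pSmad1/5 peak and the stronger peaks alone left Lamb1 and Lamc1 without one. Lama1, Lama2, Lama3 and Lama4 had neither antibody's peak. Lama2 (636 kb) and Lama3 fell in the longest length class, with loci of 209 to 2410 kb. In that class 46.4% of genes had a pSmad1/5 peak and 38.5% a pSmad3 peak. Lama5, whose chain is widespread in epithelial basement membranes, lies on chromosome 2 from 180176373 to 180225904 on the minus strand. It had a pSmad1/5 peak from 180191297 to 180195115 (percentile 89.2) and a pSmad3 peak from 180186719 to 180189921 (28.6), 1376 bp apart inside the gene. The maximum of the pSmad1/5 call (180184762 to 180184764) lay on the far side of that pSmad3 peak. Another pSmad3 peak lay 1320 bp upstream of the Lama5 start (percentile 19).

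Lamb3, the β chain of the laminin that anchors epithelia through hemidesmosomes, had 2 pSmad1/5 calls listed as 3 peaks, and 3 pSmad3 calls. On chromosome 1 a pSmad3 peak from 193308681 to 193317392 contained a pSmad1/5 peak from 193313024 to 193314991 inside the gene. Its strongest pSmad3 peak lay near the end of the gene (193337043 to 193341058, percentile 92.5), and beyond the end, in Camk1g, 1 pSmad3 peak overlapped both other pSmad1/5 peaks. Lamb2 had 1 pSmad1/5 peak inside the gene (chromosome 9, 108484503 to 108486715, percentile 80.6) and a pSmad3 piece of 165 bp 1116 bp from it (percentile 83.5 for its call). The maximum of that pSmad3 call (108491833 to 108491845) lay on the far side of the pSmad1/5 peak. The other pSmad3 peak of Lamb2 touched the neighbouring gene Usp19. Lamc3 had 2 pSmad1/5 and 3 pSmad3 peaks, of which a pSmad3 peak from 31886234 to 31887925 on chromosome 2 crossed the lower end of the gene at 31887281. Lamb1 and Lamc1, the chains shared by most laminin trimers, each had a single pSmad1/5 peak of low total signal inside the gene (percentiles 12.9 and 8.65) and no pSmad3 peak.

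Of the 4 type IV collagen genes, 3 had a pSmad1/5 peak (1.5 expected from length) and none a pSmad3 peak (1.29 expected). Col4a1 and Col4a2 encode the chains of the general basement membrane network and are transcribed in opposite directions from neighbouring starts on chromosome 8. Col4a1 had 4 pSmad1/5 peaks from 3 calls. The strongest call (percentile 67.8, maximum signal 23 against a list median of 16) was listed in pieces, 11205631 to 11209018 and 11209558 to 11211370. These pieces lay toward the end of the gene and over 100 kb from its start. The maximum of the call lay outside them, at 11217190 to 11217193. Col4a2 had 2 pieces of 1 call (11394192 to 11395320 and 11396941 to 11399392, percentile 27.2) more than 80 kb from its start. No peak of either list lay over the starts that the 2 genes share. Col4a4, a chain of specialised membranes such as that of the kidney glomerulus, had 1 pSmad1/5 peak inside the gene (percentile 41.6), and Col4a3, its neighbour, had none. Both counts depended on the settings: a flank of 50 kb gave Col4a1 and Col4a4 a pSmad3 peak, and with peaks at or above the list's median total signal Col4a1 alone kept pSmad1/5.

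The nidogens, which link laminin to type IV collagen, had 1 peak each, of different antibodies (0.638 of 2 expected for pSmad1/5 and 0.606 for pSmad3). Nid1 had a pSmad3 peak from 13434770 to 13438891 on chromosome 13 over its start, with the maximum 290 bp downstream of the start (percentile 18.2). Nid2 had a pSmad1/5 peak from 19786864 to 19789326 on chromosome 14 inside the gene (percentile 47.8). Both peaks were below their list's median total signal, and a flank of 50 kb gave Nid1 a pSmad1/5 peak as well.

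The 4 collagens of the basement membrane zone outside type IV had peaks, where 1.07 of 2 genes as long as Col15a1 and Col18a1 and 1.19 of 2 as long as Col7a1 and Col17a1 had neither. With peaks at or above the median total signal Col17a1 had none. Col18a1, the source of endostatin, lies on chromosome 10, with 2 pSmad1/5 calls listed as 4 peaks and 5 separate pSmad3 calls. At least as many pSmad3 calls were found at 25 of 1076 genes of its length class (2.32%), Col18a1 included. The pSmad3 peaks of Col18a1 ranged from percentile 0.24 to 94.4. The highest belonged to a call of which a piece of 63 bp (77058462 to 77058524) was listed inside the locus. At Col18a1 no listed pSmad1/5 and pSmad3 peaks overlapped, and the closest lay 813 bp apart. The maximum of the call with the 63 bp piece (77051208 to 77055856) did overlap a pSmad1/5 peak (77049327 to 77051610). Col15a1, the relative of Col18a1, had 3 pSmad1/5 peaks from 2 calls inside or across the end of the gene. It also had 1 pSmad3 peak 2208 bp upstream of its start (percentile 6.41). Col7a1, which forms the anchoring fibrils under epithelia, had 4 pSmad1/5 pieces of 1 call at percentile 94.7, the highest pSmad1/5 percentile among the 35 genes. The piece from 108951798 to 108954187 on chromosome 9 covered the start, but the maximum of the call lay 40243 bp downstream, beyond the end of the gene, and a further piece touched Uqcrc1. Col17a1, a transmembrane collagen of hemidesmosomes, had 2 pSmad3 peaks of low total signal on chromosome 19, of which the one at percentile 4.73 ended 28 bp short of its start.

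Fibulins, which join basement membrane and elastic fibre proteins, had peaks of both antibodies at all 3 genes (0.585 expected from length). Fbln2 had 5 peaks from 4 calls in each list, and the pSmad3 peaks covered 29.5 kb or 36.8% of its locus. Only 8 of the 1076 genes of its length class, Fbln2 included, had at least as many pSmad1/5 calls (0.743%), and 13 had at least as many pSmad3 calls (1.21%). On chromosome 6 the pSmad3 peak from 91259497 to 91269939 (percentile 93.9) contained 2 pSmad1/5 peaks, from 91261281 to 91262796 and from 91268172 to 91269395. Fbln1 had 4 pSmad1/5 calls and 3 pSmad3 calls. At least as many pSmad1/5 calls were found at 21 of the 1076 genes of its length class (1.95%), Fbln1 included. Its pSmad3 peak from 85208592 to 85216499 on chromosome 15 began 2584 bp downstream of a start and contained a pSmad1/5 peak from 85209599 to 85211722. The call behind its pSmad1/5 peak 2756 bp upstream of the start had a maximum of 24, the highest among the 40 pSmad1/5 calls at matrix genes, but that maximum lay outside the peak, 502 bp from the start. Fbln5, an elastic fibre protein, had 1 peak of each antibody, 40.4 kb apart.

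Of the 10 interstitial collagen genes, 3 had peaks of both antibodies, 3 of 1 antibody and 4 of neither. Among fibrillar collagens, Col3a1 and Col5a2, neighbours on chromosome 1 that encode chains of types III and V, had none. Col5a1, the other main type V chain, had 2 pSmad1/5 and 3 pSmad3 peaks on chromosome 2. Its pSmad3 peak from 27930075 to 27941589 (percentile 92.7) lay 43650 bp into the gene, and its nearer pSmad1/5 peak (27889480 to 27892085, percentile 72.6) 3055 bp downstream of the start. Col5a3 had a pSmad3 peak from 20812153 to 20820492 on chromosome 9 over its start (percentile 75.6), which also touched Rdh8, and 3 pSmad1/5 peaks from 2 calls further inside the gene (highest percentile 84.3).

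Type VI collagen, a beaded filament of connective tissue, had peaks at all 3 genes (1.79 of 3 with neither expected from length). Col6a1 had a pSmad1/5 peak 432 bp upstream of its start (chromosome 10, 76726476 to 76728466, percentile 57.1). Inside the gene a pSmad3 peak (76716857 to 76723997, percentile 68.8) contained its other pSmad1/5 peak. Col6a2, in the same region, had only a pSmad1/5 piece of 288 bp (percentile 33.3), which was below the median total signal, and Col6a3 only pSmad3 peaks, 3 from 2 calls, of which 90842955 to 90844366 on chromosome 1 covered its start (percentile 36.7). Among fibril-associated collagens, Col12a1 and Col14a1 had none, and Col16a1 had a pSmad1/5 piece of 898 bp, 995 bp upstream of its start (percentile 80.7 for its call, whose maximum lay outside the locus).

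**Figure D3:**
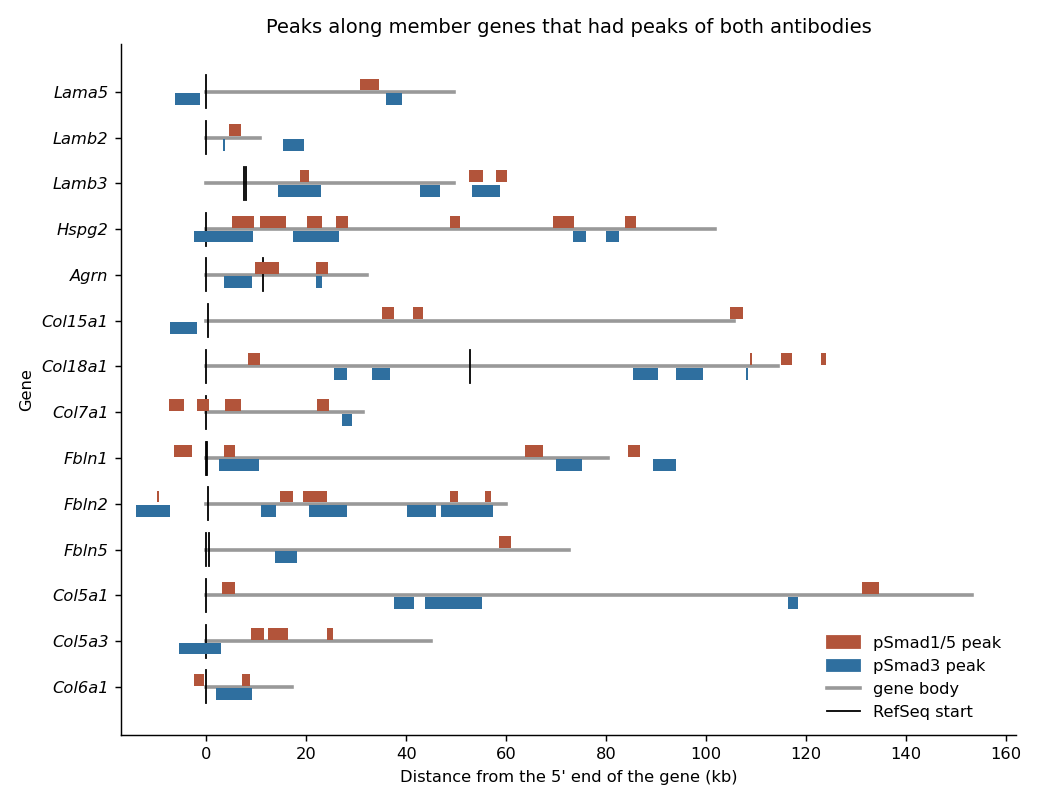
Each row is a matrix gene with peaks of both antibodies and a RefSeq start in the table (14 of 15 such genes), drawn from its 5′ end in kb; pSmad1/5 peaks are above the gene line, pSmad3 peaks below, black ticks are RefSeq starts, and very short pieces are drawn wider to be visible. Most peaks lie inside the gene bodies, with pSmad3 over the start at Hspg2 and Col5a3 and pSmad1/5 over a start at Agrn and Col7a1.

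Peaks of both lists touched the gene bodies about as often as these take up the loci, of which gene bodies make up 84.0%. Of 56 pSmad1/5 peaks (40 calls), 44 touched the gene body (78.6%), as did 36 of 43 pSmad3 peaks (41 calls, 83.7%). Another protein-coding gene was touched by 6 pSmad1/5 and 3 pSmad3 peaks, and no peak lay in the loci of 2 matrix genes. Overlap between the antibodies was near the level of other loci: 14 of 56 pSmad1/5 peaks (25.0%) overlapped a pSmad3 peak, against 20.3% of the 7291 pSmad1/5 peaks in protein-coding loci. Likewise 11 of 43 pSmad3 peaks (25.6%) overlapped a pSmad1/5 peak, against 22.3% of 5545. The overlaps lay at 6 of the 15 genes with both antibodies, namely Lamb3, Hspg2, Agrn, Fbln1, Fbln2 and Col6a1. The matching share among all 3032 protein-coding genes with both antibodies was not counted, so it is unknown whether 6 of 15 is unusual. At the other 9 matrix genes the closest listed peaks of the 2 lists lay between 813 bp (Col18a1) and 40.4 kb (Fbln5) apart. These gaps are between listed pieces and do not show that the calls were apart. At Lama5, Lamb2, Col18a1 and Col7a1 the maximum of a call lay over a peak of the other antibody or on its far side.

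At matrix genes the maximum signals lay around the list medians. Counted by listed peak, the total signals stood at or above the list medians more often than in other loci. The total and maximum are the authors' values for a whole call, in their own scaling, and were used only to rank peaks within a list. The maximum ran from 11 to 24 over the 40 pSmad1/5 calls and from 9 to 20 over the 41 pSmad3 calls, against list medians of 16 and 13. No matrix gene had a peak whose maximum was over 2 times its list's median, so none of these results rests on the few very high peaks of the lists. By total signal 34 of 56 pSmad1/5 peaks (60.7%) and 27 of 43 pSmad3 peaks (62.8%) stood at or above the list median, against 50.6% and 49.8% of all peaks in protein-coding loci. Pieces of 1 call repeat its total, so a call listed in several pieces counts several times in these shares. Taken once per call, the median percentile for pSmad1/5 was 47.8, close to the 44.2 in all protein-coding loci. For pSmad3 it was 64.7, against 48.8. The region of the maximum overlapped the listed peak for 18 of 56 pSmad1/5 peaks (32.1%) and 26 of 43 pSmad3 peaks (60.5%), against 36.7% and 74.8% of the whole lists. A signal thus often describes sequence beside the piece listed.

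**Figure D4:**
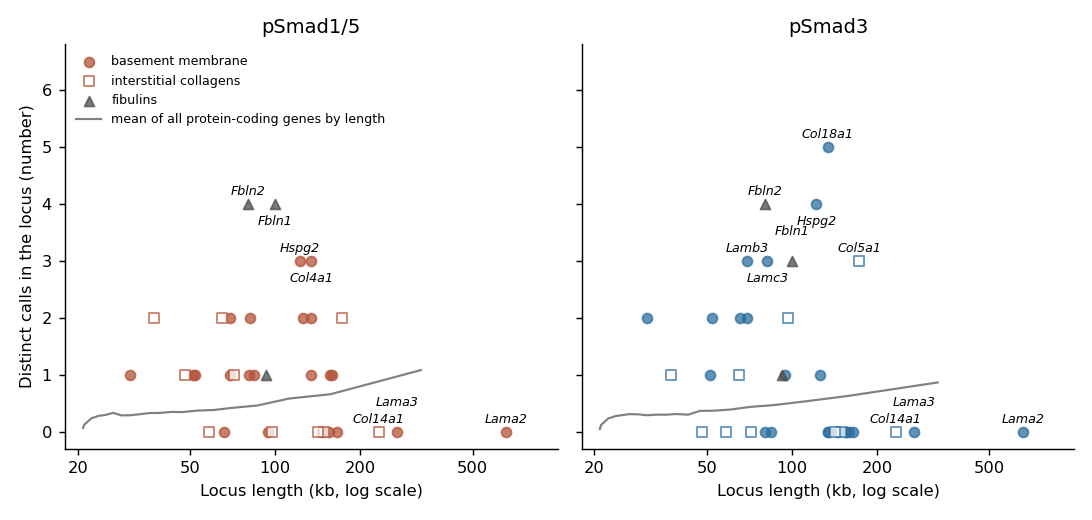
Each point is a matrix gene, with its locus length in kb on a log axis and its number of distinct calls; the grey line is the mean over all protein-coding genes in 20 length classes. Fbln1 and Fbln2 stand highest for pSmad1/5 (4 calls each) and Col18a1 for pSmad3 (5 calls), and the 3 longest genes, Lama2, Lama3 and Col14a1, are at 0.

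The matrix genes without peaks were mostly long genes in gene-poor surroundings. The 9 genes with neither antibody's peak had a median locus length of 155 kb (58.2 to 656), against 83.2 kb (30.7 to 173) for the 26 with a peak. Over all protein-coding genes the order was the reverse, with a longer median locus for genes with a peak than for those with neither. The 9 matrix genes had a median of 4 other protein-coding genes within 500 kb (2 to 9). For the 26 with a peak it was 10 (6 to 38). Gene density kept the same direction over all protein-coding genes, with medians of 13 without and 18 with a peak. The same 9 loci had a median of 3 pSmad1/5 peaks (1 to 11) and 1 pSmad3 peak (0 to 11) in the 500 kb on each side, outside the locus. The 26 loci with a peak had 11.5 (1 to 24) and 9 (1 to 18). The 6 genes with the fewest neighbours, all without a peak, were Lama1, Lama2, Lama4, Col3a1, Col5a2 and Col12a1. Each had under 6 genes within 500 kb, where 26.1% of 3292 protein-coding genes had a peak. With 6 to 9 genes nearby, 10 of 13 matrix genes had a peak, against 29.8% of all genes. With 10 or more nearby, 16 of 16 had a peak, against 41.9%. These limits match the matrix genes themselves: 6 was the fewest neighbours of a gene with a peak, and 9 the most of one with neither. The lack of peaks under 6 neighbours and the 16 of 16 were therefore fixed by where the limits lie. From length and gene density together, 12.3 of 35 genes would carry pSmad1/5 and 11.0 pSmad3. The part of gene density in the result was not tested.

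**Figure D5:**
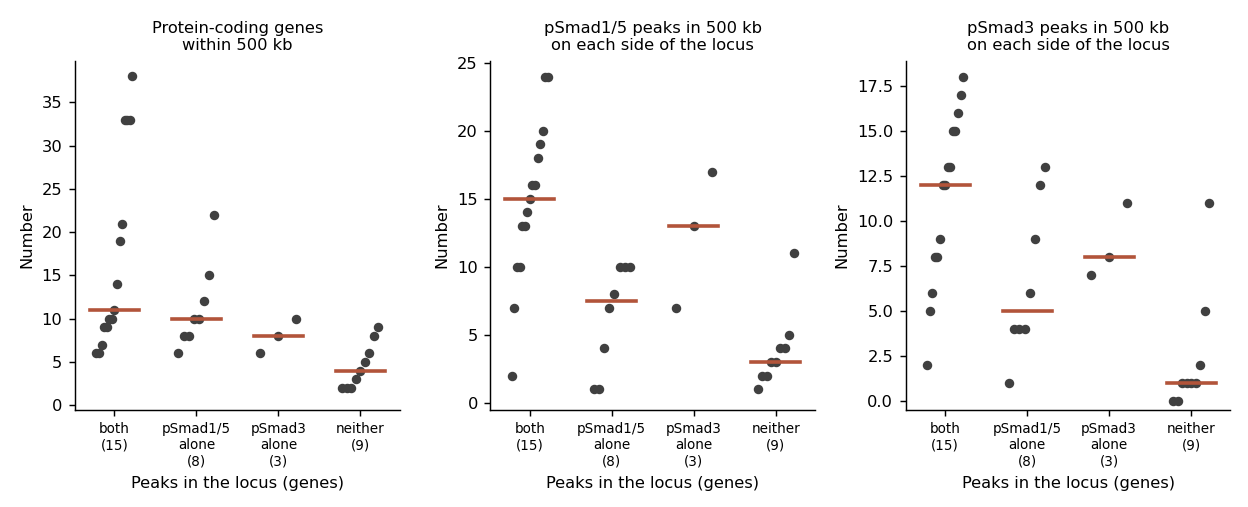
Points are the 35 matrix genes by which lists had a peak in the locus, with horizontal lines at the medians; the panels give the number of protein-coding genes within 500 kb and the numbers of pSmad1/5 and pSmad3 peaks in the 500 kb on each side. The 9 genes with neither have between 2 and 9 genes nearby, and Lama3, with 11 peaks of each antibody nearby, is the highest of them in both peak panels.

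Other genes of matrix biology, 109 in 5 lists, stood closer to the background than the 35 genes. Together 47 had a pSmad1/5 peak (43.1%, 35.4 expected from length) and 36 a pSmad3 peak (33.0%, 31.7 expected). Receptors for matrix were near the expected number, with 9 of 26 for pSmad1/5 (8.64 expected) and 7 for pSmad3 (7.6 expected). Sdc3, a syndecan, had pSmad1/5 peaks at percentile 91.6 and the integrin chain Itga9 5 pSmad3 peaks (highest 87.7), while of the collagen-binding chains Itga11 had peaks of both antibodies (70.7 and 84.2) and Itga1 and Itga2 had none. Further basement membrane and anchoring genes carried pSmad1/5 at 11 of 18 (61.1%, 6.72 expected) and pSmad3 at 4 (22.2%, 5.89 expected). Their pSmad1/5 share was near the 65.7% of the 35 genes, while their pSmad3 share was below the 51.4% of the 35. Sparc, a collagen-binding glycoprotein, was highest there for pSmad1/5 (percentile 76.8) and Plec, which links hemidesmosomes to keratin, for pSmad3 (89.1), while Col4a5 and Fras1 had neither. Col4a6 had a pSmad1/5 peak with a maximum of 47, over 2 times the list median.

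Of 22 enzymes of collagen folding and crosslinking, pSmad1/5 lay at 11 (6.81 expected) and pSmad3 at 9 (6.2 expected). P4ha2, a prolyl hydroxylase subunit, was highest in both lists, at percentiles 93.7 and 97.8, but its maxima of 645 and 537 were far above the list medians. Bmp1, a procollagen protease, followed at 91.9 and 88.8 with maxima of 17 and 18. Other interstitial and elastic genes carried pSmad1/5 at 9 of 24 (7.36 expected) and pSmad3 at 9 (6.70 expected), led by Col13a1 (85.8) and Col26a1 (91.7), while Col1a2 and Col8a1 had neither. Matrix proteases and their inhibitors had 7 of 19 for each antibody (5.88 and 5.30 expected). Mmp15 led for pSmad1/5 (90.7) and Mmp11 for pSmad3 (87.2), and Mmp2 and Mmp14 had neither.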

How the data were processed

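CUT&RUN was made on molar tooth germs of wild-type CD1 embryos, with 2 libraries per antibody. The authors deposited 1 list of common peaks per antibody, and its total and maximum signal per call are coverage in their own scaling, per the labels. Peaks came from SEACR on mm10, with Bowtie2, deepTools, SAMtools and bedtools also listed, per the submitters' processing notes. Versions, settings, any control library and the way replicate lists were merged into common lists are not stated there. Only called peaks were examined, and depth is unknown.

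Genes came from the RefSeq table of GRCm38.p6, without genes in the first 3 Mb of a chromosome (unlocalised scaffolds), and all 35 matched by symbol. Starts and sequences came from RefSeq's promoter table of the same assembly. A gene had a peak if at least 1 bp of it fell within the gene extended by 10 kb at both ends. Expected numbers are sums, over the genes, of the share with a peak among all protein-coding genes of the same 1 of 20 locus-length classes. Intervals are exact 95% Clopper-Pearson. No significance test was run, since there is 1 list per antibody. Overlap counting was tested on simulated data and gave the same genes as bedtools 2.31.1. Python 3.11.15, pandas 2.3.3, scipy 1.17.1 and matplotlib 3.10.9 were used.

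The genes, classes and other lists were chosen with earlier results of these data known. All 35 genes are named. From each other list the rule took up to 3 genes per antibody by highest total signal and up to 2 without a peak, and some of these are not printed. Promoters were those of covered starts, at most 6. Alternatives covered the flank, the overlap rule, stricter lists, class membership and counting by call.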

Additional observations from a re-analysis of the deposited data

How the results depend on the processing

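The genes with a peak were counted with the gene body alone, with a flank of 50 kb, by peak midpoints, with peaks at or above the median total signal of their list, without peaks over 2 times the median maximum and, for the classes, with other class membership; peaks were also counted by call and by an overlap of at least 50%. Of 45 alternative counts, 42 stayed within 1.5 times the value reported. Basement membrane genes with a pSmad3 peak went from 11 to 7 with the stronger peaks alone (3.94 expected from length), as the peaks of Lama5, Nid1, Col15a1 and Col17a1 were below the median. Interstitial genes went from 5 to 8 for pSmad1/5 and from 4 to 7 for pSmad3 when the 3 fibulins were added to them. Under either change the pSmad3 share was higher at interstitial than at basement membrane genes. The counts over all 35 genes ran from 16 to 28 for pSmad1/5 (5.96 and 17.0 expected; 14.4% and 47.3% of all genes at those settings) and from 14 to 23 for pSmad3 (6.19 and 15.1 expected; 14.1% and 42.4%). Midpoints, and leaving out high maxima, changed none of the genes. Of the 9 genes without a peak, the flank of 50 kb gave Lama2, Lama3 and Col4a3 a pSmad1/5 peak and none a pSmad3 peak. Expected numbers by length and gene density, which were chosen after seeing the data, were 12.3, 11.0 and, for both antibodies, 7.16. No paired analysis was possible because the deposited lists hold no value per library, and for the same reason no library could be left out. A missing peak sets no limit on signal, since depth is unknown.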
